A study of Mus musculus with 8 samples.

Results

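The collagens that build and coat the fibrils of connective tissue were examined in corneas of mice with raised TGF-beta. The set holds 9 genes, chosen by name: Col1a1, Col1a2, Col3a1, Col5a1, Col5a2, Col5a3, Col11a1, Col12a1 and Col14a1. Every probe set that the platform annotation assigns to 1 of these symbols alone was taken. That gave 23 of the 45037 probe sets tested, a probe set being a group of short probes on the array that together give 1 signal for a transcript. RNA of mouse eye cornea was measured on 8 one-colour arrays, 4 of mice labelled as overexpressing tgf beta (called TGFB) and 4 of their wildtype littermates. The labels name neither the TGF-beta isoform nor the promoter, strain, sex or age of the mice, and the series title speaks of high doses of TGF-beta. Whether the arrays come from separate animals is not stated, so the p-values cover no more than the spread between the arrays, and that spread may be technical.

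Fibrillar collagens are chains that wind in triplets into a rod, leave the cell as procollagen and assemble into striated fibrils once their end pieces are cut off. Type I collagen, made of the chains of Col1a1 and Col1a2, is the main fibril protein of the corneal stroma, and type V collagen, co-assembled within the same fibrils, keeps them thin and even, as transparency needs. Type III collagen (Col3a1) is scarce in the normal corneal stroma and is known from wounds, skin and sclera. Types XII and XIV (Col12a1 and Col14a1) do not form fibrils alone but bind to fibril surfaces. TGF-beta is a classical inducer of these genes in fibroblasts and acts through SMAD proteins that bind short DNA elements.

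Promoters are shown for 4 of the genes, since the comparison concerns their response to TGF-beta and since each has at least 1 probe set with its highest signal on the same wildtype array. RefSeq windows of build GRCm38.p6 matched 5 of the 9 genes: these 4 and Col5a3. Each line gives the 200 bases just before the annotated start, 5′ to 3′ on the gene's strand. Capitals mark a CCAAT box (CCAAT), a GC box (GGGCGG), the core of a SMAD-binding element (CAGAC) or a TATA box (TATAAA), each searched on both strands.
Col1a2, chr6:4505418-4505617, + strand: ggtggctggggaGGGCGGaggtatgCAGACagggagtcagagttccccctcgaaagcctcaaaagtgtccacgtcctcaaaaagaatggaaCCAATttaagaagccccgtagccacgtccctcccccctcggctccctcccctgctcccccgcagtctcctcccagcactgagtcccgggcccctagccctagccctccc
Col3a1, chr1:45311338-45311537, + strand: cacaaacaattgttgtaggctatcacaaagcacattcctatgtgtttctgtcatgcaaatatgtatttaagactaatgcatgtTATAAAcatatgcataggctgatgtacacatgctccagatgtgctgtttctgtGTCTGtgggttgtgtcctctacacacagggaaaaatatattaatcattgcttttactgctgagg
Col5a1, chr2:27886225-27886424, + strand: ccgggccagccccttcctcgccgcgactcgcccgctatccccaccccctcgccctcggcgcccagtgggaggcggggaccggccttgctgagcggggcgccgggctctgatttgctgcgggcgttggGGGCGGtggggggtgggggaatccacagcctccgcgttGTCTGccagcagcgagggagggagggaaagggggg
Col11a1, chr3:114030340-114030539, + strand: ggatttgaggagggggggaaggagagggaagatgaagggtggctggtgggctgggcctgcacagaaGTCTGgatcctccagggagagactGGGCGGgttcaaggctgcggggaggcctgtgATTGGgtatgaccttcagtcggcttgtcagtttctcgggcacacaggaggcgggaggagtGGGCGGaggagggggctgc
The letters CAGAC or their reverse complement occurred once in each of the 4 windows and not in that of Col5a3. Of 32851 promoter windows of this length, 35.5% held them. A CCAAT box stood in the Col1a2, Col5a3 and Col11a1 windows, against 29.4% of all windows. The TATA box letters occurred once, in the Col3a1 window, and in 9.96% of all windows. A GC box was found in the windows of Col1a2, Col5a1, Col5a3 and Col11a1 and in 31.1% of all windows. These matches describe letters only.

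Transcripts known from skin, tendon or sclera, retina and muscle were measured on the arrays. Wildtype 4 and wildtype 1 each stood apart in some values. Values here and below are signals, or log2(signal + 16) where stated, and differences are TGFB minus wildtype. Keratin Krt10 of cornified skin had signals of 8494 to 11198 on TGFB 1, TGFB 2 and wildtype 2, against 139.8 to 409 on the other 5 arrays. Tenomodulin (Tnmd), a gene of tendon and sclera, ran from 1891 to 5397 on 7 arrays and reached 9762 on wildtype 4. Wildtype 4 also had the highest 3'/5' signal ratios, which grow with RNA decay: 6.41 for Gapdh against 2.19 to 4.31 elsewhere, and 6.60 for beta-actin against 2.19 to 3.61. Its signal of the corneal keratin Krt12 was 562, against 3008 to 5766 on the other wildtype arrays and 289 to 4551 on the TGFB arrays. Keratocan (Kera), a proteoglycan abundant in the corneal stroma, lay between 2073 and 8110. It was highest on wildtype 4 and also belongs to the tendon and sclera marker list used here, so it does not mark the stroma alone. Wildtype 1 stood apart in other transcripts and had the lowest median signal, 26.3. Retina markers Sag and Rpe65 had signals of 1892 and 250 there, against 29.0 to 237 and 0.569 to 6.28 elsewhere. The muscle marker Myh1 had 3936, against 25.5 to 335. Guca1a and Prph2 of retina and Acta1 and Ckm of muscle were not highest there.

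No fibrillar or fibril-associated collagen passed the test between TGFB and wildtype corneas. The brightest of them had similar mean log2 values in both groups, though wildtype 4 stood above the other arrays. Limma called 0 of the 23 probe sets at adjusted p under 0.05, and 0 at an unadjusted p under 0.05. Over all 45037 probe sets the first threshold called 0% in each direction, and the second called 2.70% higher and 3.16% lower. The groups overlapped for all 23 probe sets, while 1.47% of all probe sets were higher and 1.81% lower without overlap. The median log2 difference of the 23 was -0.06, beside 0.0090 over all probe sets, with 9 values above 0 and 14 below. Adjusted p-values of the members lay between 0.870 and 0.998. In whole-tissue RNA, fewer cells of a type and less RNA per cell cannot be told apart. Keratocyte markers, genes listed here for the resting stromal cell, had a list mean of 9.24 ± 0.37 on TGFB arrays and 10.00 ± 0.40 on wildtype arrays (log2, SD, n = 4). The arrays ran from 8.80 to 9.65 and from 9.59 to 10.55. Of the 9 measured of 10, 8 had a lower mean in TGFB corneas and 0 passed limma (2 at an unadjusted p under 0.05, both lower: the prostaglandin synthase Ptgds and the retinal dehydrogenase Aldh1a1, named after their values were seen). At this level of 1 probe set per gene, 2.65% of 18193 genes were higher and 4.42% lower at an unadjusted p under 0.05. The largest log2 differences of the keratocyte list were those of Aldh3a1 (-2.05), Ptgds (-1.67), Aldh1a1 (-1.065) and Angptl7 (-0.83). Kera, Lum, Dcn and Ogn had -0.56, -0.34, -0.34 and -0.050, and B3gnt7 had 0.037. Aldh3a1 had a signal of 4060 on wildtype 1, against 52.5 to 315 on the other arrays. Lists of other cell types also had differing means, with 0 calls in each list named here. Fibroblast markers had list means from 9.53 to 10.03 on TGFB arrays and from 9.84 to 10.23 on wildtype arrays (log2). In this list 4 of 11 were higher and 7 lower, with 1 lower at an unadjusted p under 0.05. Myofibroblast markers ran from 8.91 to 9.94 and from 9.43 to 10.38. Of these 6, 2 were higher and 4 lower, with 1 lower at that threshold. Pigment cell markers had list means from 7.60 to 9.28 on TGFB arrays and from 9.21 to 11.55 on wildtype arrays (log2), with 8 of 8 lower in the TGFB mean and 5 of them at an unadjusted p under 0.05. Retina markers ran from 4.91 to 5.20 and from 5.22 to 7.29, with 7 of 8 measured lower and 3 at that threshold. Lens markers ran from 5.19 to 9.40 and from 5.67 to 10.28, with 11 of 11 measured lower and 0 at that threshold. All 7 skeletal muscle markers and 5 of 6 macrophage markers also had lower TGFB means, while all 7 cornified epidermis markers had higher ones. Markers of a list can rise together on the same arrays, so these counts are not counts of separate results. All 7 cornified markers were highest on TGFB 1, TGFB 2 and wildtype 2. The muscle markers Myh1, Myh4 and Actn3 were far higher on wildtype 1 than on any other array. Acta1, Ckm, Mylpf and Tnnt3 had log2 differences of -0.033, -0.073, -0.17 and -0.19. The part of these cell types in the collagen values was not tested.

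**Figure D1:**
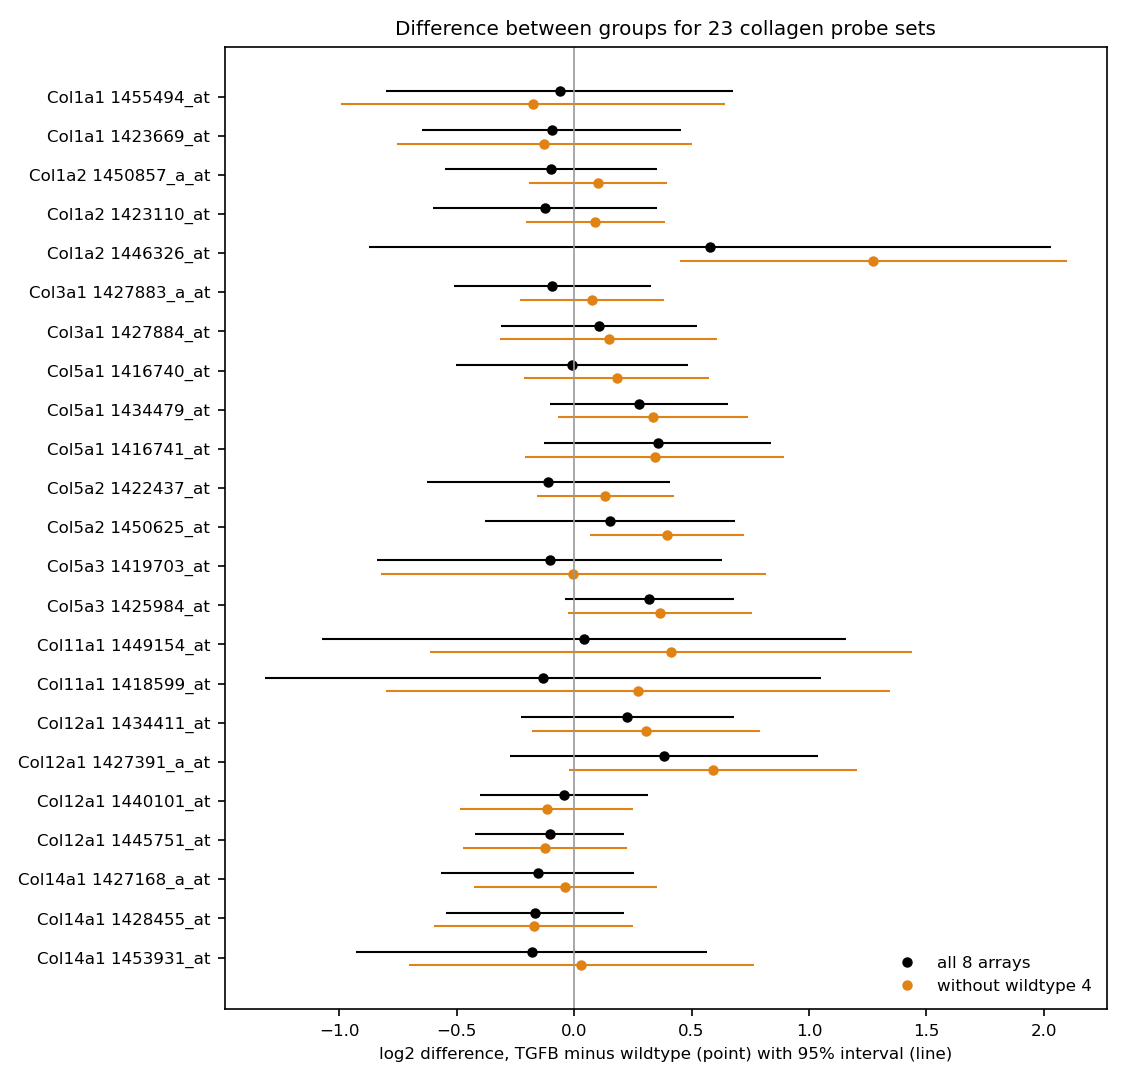
Log2 difference (TGFB minus wildtype) of the 23 collagen probe sets, with its 95% interval as a line, from all 8 arrays (black) and without wildtype 4 (orange). Every black interval crosses 0; without wildtype 4 those of Col1a2 1446326_at and Col5a2 1450625_at lie above 0, with no adjusted p under 0.05.

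Type I collagen had similar mean log2 values in both groups in its brightest probe sets. Col1a2, the alpha 2 chain, gave signals of 9305, 8736, 8885 and 9555 on TGFB arrays and 7869, 8358, 9331 and 14741 on wildtype arrays with probe set 1450857_a_at. Apart from wildtype 4 the arrays lay close together, and the TGFB values fell inside the wildtype range. The log2 difference was -0.10 (SE 0.20, limma adjusted p = 0.966), with a 95% interval from -0.55 to 0.35, that is from 0.683 to 1.28 times the wildtype level. The second Col1a2 probe set, 1423110_at, gave 8452, 7511, 7701 and 8886 against 7870, 7529, 7479 and 13868, a difference of -0.12 (SE 0.21, adjusted p = 0.958). Again wildtype 4 alone was far above the rest.

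The remaining Col1a2 probe set had the same highest and lowest arrays as 1450857_a_at but a wider spread. Probe set 1446326_at gave 656, 358, 359 and 636 on TGFB arrays and 102.7, 259, 251 and 1396 on wildtype arrays. It held both the lowest and the highest value in the wildtype group, with all TGFB arrays between them. Its signal spanned 13.6-fold over the 8 arrays, against 1.87-fold and 1.85-fold for the other Col1a2 probe sets. The log2 difference was 0.58 (SE 0.64, adjusted p = 0.931), and the interval from -0.87 to 2.03 was the widest of the set. It ran from 0.083 without wildtype 1 to 1.27 without wildtype 4.

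Col1a1, the alpha 1 chain, passed the test with neither probe set, and the probe sets disagreed on which arrays were high. With 1455494_at the signals were 1794, 4345, 1749 and 2337 on TGFB arrays and 1994, 3909, 2488 and 1952 on wildtype arrays. TGFB 2 and wildtype 2, both rich in cornified transcripts, were highest, while TGFB 1, which shares those transcripts, was among the lowest. The log2 difference was -0.06 (SE 0.33, adjusted p = 0.989, interval -0.80 to 0.68). With 1423669_at the signals were 1630, 1520, 1073 and 1409 against 2377, 1342, 1099 and 1397. Here wildtype 1 was highest, and TGFB 2 and wildtype 2 lay in the middle. The difference was -0.10 (SE 0.24, adjusted p = 0.975, interval -0.65 to 0.45). Over the 8 arrays the probe sets correlated at r = -0.068, so no single Col1a1 pattern across arrays can be given. Neither shared the high value of Col1a2 on wildtype 4.

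**Figure D2:**
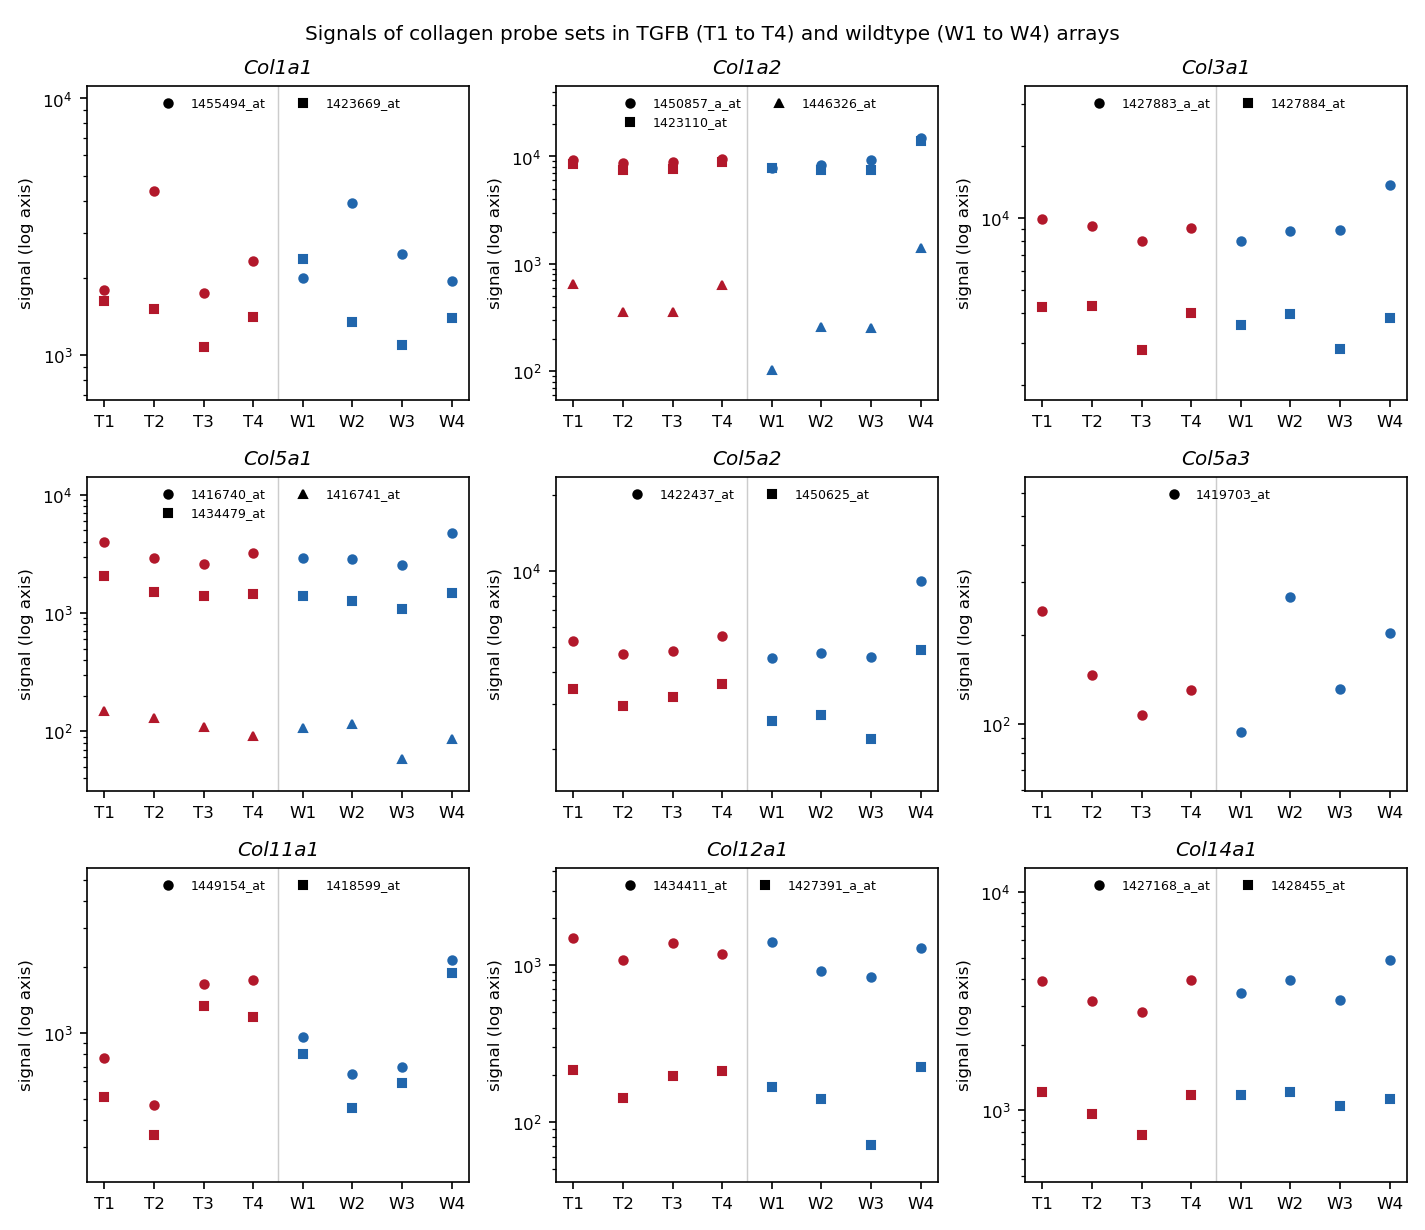
Signal of each collagen probe set with a mean signal of at least 50 (19 of 23) on TGFB (T1 to T4, red) and wildtype (W1 to W4, blue) arrays, on log axes that differ between panels, with a marker shape for each probe set. W4 is highest for Col1a2, Col5a2 and Col11a1 and not for Col1a1, and red and blue points overlap in every panel.

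Type III collagen, a fibril collagen of wounds and distensible tissues, had high signals on all arrays and did not pass the test. Col3a1 probe set 1427883_a_at gave 9930, 9217, 8035 and 9049 on TGFB arrays and 8012, 8811, 8884 and 13721 on wildtype arrays. The log2 difference was -0.09 (SE 0.19, adjusted p = 0.965, interval -0.51 to 0.33). Without wildtype 4, the highest array, it was 0.077 (SE 0.13). Probe set 1427884_at gave 4229, 4285, 2795 and 4013 against 3560, 3953, 2812 and 3822. Its lowest arrays were TGFB 3 and wildtype 3, and wildtype 4 was in the middle. The difference was 0.11 (SE 0.18, adjusted p = 0.958, interval -0.31 to 0.52).

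Type V collagen, the regulator of fibril width, had mixed signs and no call. Col5a1, its alpha 1 chain, gave 4004, 2925, 2614 and 3219 on TGFB arrays and 2938, 2845, 2559 and 4727 on wildtype arrays with 1416740_at, and the difference was -0.0092 (log2, SE 0.22, adjusted p = 0.998). A second probe set, 1434479_at, gave 2038, 1510, 1394 and 1450 against 1404, 1270, 1089 and 1470. TGFB 1 was highest and wildtype 3 lowest there, and the difference was 0.28 (SE 0.17, adjusted p = 0.898, interval -0.10 to 0.66). The dimmest, 1416741_at, ranged from 91.1 to 148.4 on TGFB arrays and from 57.9 to 114.6 on wildtype arrays, with a difference of 0.36 (SE 0.21, adjusted p = 0.898).

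Col5a2, the alpha 2 chain of type V, followed Col1a2 in its high value on wildtype 4. Probe set 1422437_at gave 5302, 4698, 4839 and 5533 on TGFB arrays and 4549, 4757, 4595 and 9097 on wildtype arrays. The log2 difference was -0.11 (SE 0.23, adjusted p = 0.967, interval -0.63 to 0.41). Probe set 1450625_at gave 3418, 2936, 3194 and 3578 against 2578, 2721, 2183 and 4874, a difference of 0.15 (SE 0.24, adjusted p = 0.952). In this probe set every TGFB array was above wildtype 1, wildtype 2 and wildtype 3, and below wildtype 4. Without that array the difference was 0.40 (SE 0.14, adjusted p = 0.361).

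Col5a3, a less common chain of type V, was dim. Probe set 1419703_at gave 240.7, 146.4, 107.5 and 130.3 on TGFB arrays and 93.8, 268, 130.9 and 203 on wildtype arrays, and the difference was -0.10 (log2, SE 0.33, adjusted p = 0.980). Wildtype 2 and TGFB 1 were highest. A second Col5a3 probe set, 1425984_at, lay between 1.08 and 14.1 on all arrays and had the smallest p of the set (difference 0.32, SE 0.16, adjusted p = 0.870). Such signals lie below the offset of 16, so that difference depends on the offset and was 1.03 with an offset of 1.

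Col11a1, the alpha 1 chain of type XI collagen, which is known from cartilage fibrils and related to type V, was among the most variable members. Probe set 1449154_at gave 768, 467, 1667 and 1745 on TGFB arrays and 961, 647, 697 and 2147 on wildtype arrays. Probe set 1418599_at gave 509, 341, 1326 and 1182 against 798, 452, 592 and 1871. Both placed wildtype 4, TGFB 3 and TGFB 4 highest and TGFB 2 lowest. Their log2 differences were 0.042 (SE 0.49, adjusted p = 0.995) and -0.13 (SE 0.53, adjusted p = 0.985), with intervals from -1.07 to 1.16 and from -1.32 to 1.05. The spread within each group, with SDs from 0.78 to 0.93, leaves room for a change of more than 2-fold either way. Without the 3 arrays rich in cornified transcripts the differences were 0.59 (SE 0.47) and 0.38 (SE 0.48), each with adjusted p = 0.987.

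Some markers of tendon and sclera, and some of cartilage, shared the highest arrays of Col11a1. Tnmd gave 3488, 1891, 5063 and 5397 on TGFB arrays and 3462, 2056, 2635 and 9762 on wildtype arrays. Its 3 highest arrays were those of Col11a1, as were those of the tendon transcription factor Scx and of Fmod. The other 3 markers of the list differed: Mkx was highest on wildtype 1, and Thbs4 and Kera had wildtype 1 second, after wildtype 4. The mean of the 6 markers, all measured, ran from 9.12 to 10.51 on TGFB arrays and from 9.27 to 10.92 on wildtype arrays (log2). Cartilage markers, 9 of 9 measured, ran from 5.90 to 6.65 and from 5.60 to 6.51. Type II collagen (Col2a1), the defining cartilage collagen, had signals from 77.4 to 245.9 and from 92.9 to 183.3. The 3 highest arrays of Col2a1, Matn3 and Chad were those of Col11a1, while those of the other cartilage markers differed. Fn1, Bgn, Ogn, Postn and Vim, which are in neither list, also had these arrays highest, while other genes such as Dcn and Pdgfra did not. The part of tendon, sclera or cartilage in the Col11a1 values was not tested.

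Fibril-associated collagens went in different directions, none past the threshold. Col12a1, which is made where tissue bears load or heals, gave 1496, 1079, 1377 and 1173 on TGFB arrays and 1401, 916, 837 and 1286 on wildtype arrays with 1434411_at. Its second probe set, 1427391_a_at, gave 215, 141.6, 195.9 and 209.6 against 165.8, 140.3, 71.6 and 225. Wildtype 3 was lowest and wildtype 2 next lowest in both, while wildtype 1 and wildtype 4 reached the levels of the TGFB arrays. The log2 differences were 0.23 (SE 0.20, adjusted p = 0.920, interval -0.23 to 0.68) and 0.38 (SE 0.29, adjusted p = 0.912, interval -0.27 to 1.04). Without wildtype 3 they were 0.10 and 0.11. A further pair of Col12a1 probe sets stayed between signals of 0.577 and 7.85 on all arrays.

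Col14a1, a fibril-surface collagen, had small negative differences. Probe set 1427168_a_at gave 3917, 3170, 2809 and 3955 on TGFB arrays and 3444, 3932, 3215 and 4889 on wildtype arrays, and the difference was -0.16 (log2, SE 0.18, adjusted p = 0.934). Probe set 1428455_at gave 1215, 960, 770 and 1173 against 1171, 1216, 1051 and 1126, a difference of -0.17 (SE 0.17, adjusted p = 0.927). TGFB 3 was lowest in both. Their intervals ran from -0.57 to 0.25 and from -0.54 to 0.21. The last Col14a1 probe set was dim, between 1.95 and 29.7.

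Wildtype 4 set the sign of several collagens. Of the 19 member probe sets with a mean signal of at least 50, 11 had their highest value there, against 19.98% of the 19371 probe sets that bright. Its signal was 1.96 and 1.95 times the mean of the other wildtype arrays for the Col5a2 probe sets, 1.73 and 1.82 times for the brightest Col1a2 probe sets, and 2.79 and 3.05 times for Col11a1. For Col1a1 it was 0.698 and 0.870 times. The Col3a1 and Col5a1 probe sets split, with 1.60 and 1.11 times for Col3a1 and 1.70, 1.17 and 0.926 times for Col5a1. Fibromodulin (Fmod), Kera and lumican (Lum), proteoglycans that bind collagen fibrils, were also highest on wildtype 4, at 11014, 8110 and 8788. Other genes of the fibril surface were not: Prelp and Tnxb were lowest there, at 60.6 and 176.6. With all arrays 8 of the 19 differences were above 0. Without wildtype 4, 14 were, and the median of the 19 moved from -0.06 to 0.15. For the 11 probe sets highest on wildtype 4, leaving it out must raise the difference, so this rise is no separate result. The differences of Col1a2 (1450857_a_at and 1423110_at), Col3a1 (1427883_a_at), Col5a1 (1416740_at), Col5a2 (1422437_at) and Col11a1 (1418599_at) turned from below to above 0, to 0.10, 0.091, 0.077, 0.18, 0.13 and 0.27. The Col5a1 value also turned without TGFB 2 (0.026) or TGFB 3 (0.080). That of Col11a1 also turned without TGFB 1 (0.032) or TGFB 2 (0.22). The Col1a2, Col3a1 and Col5a2 values turned with no other single array left out. No member passed without wildtype 4 (smallest limma adjusted p = 0.279), while 0% of all probe sets were higher and 0.00444% lower at adjusted p under 0.05. At an unadjusted p under 0.05, 2 of the 23 were higher, Col1a2 1446326_at and Col5a2 1450625_at, and 0 lower, where 5.88% of all probe sets were higher and 5.78% lower. The part of RNA decay or of neighbouring tissue in these values was not tested.

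**Figure D3:**
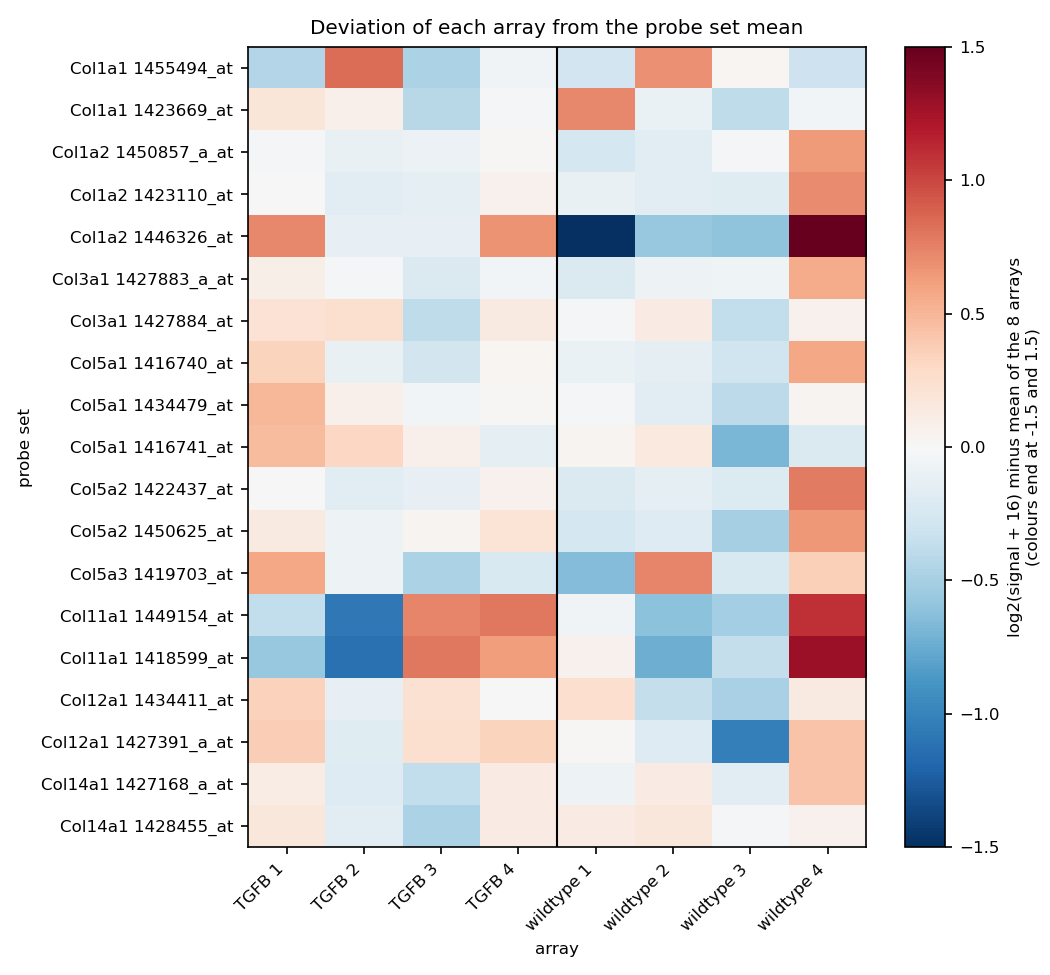
Deviation of each array from the 8-array mean of a probe set, as log2(signal + 16), for the 19 collagen probe sets with a mean signal of at least 50; red is higher, blue is lower, and colours end at -1.5 and 1.5. The wildtype 4 column is red for Col1a2, Col5a2 and Col11a1 but not for Col1a1, and the Col1a1 probe sets differ from each other.

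Probe sets of 1 gene differed in how well they followed each other over the 8 arrays, which they share, and these correlations are a description. Pearson r was 0.985 for the Col11a1 probe sets, 0.886 for Col5a2, 0.826 for Col12a1 and 0.736 for Col14a1. For Col3a1 it was 0.361, and 0.626 without wildtype 4. The brightest Col1a2 probe sets had 0.948 and fell to 0.479 without that array. Col1a2 1446326_at had 0.843 with 1450857_a_at and 0.775 with 1423110_at, and 0.841 and 0.598 without wildtype 4. For Col5a1 the brightest probe sets gave 0.630, and 0.902 without wildtype 4. The dimmest, 1416741_at, had 0.208 with 1416740_at and 0.782 with 1434479_at, and 0.625 and 0.823 without wildtype 4. Wildtype 4 therefore raised some of these correlations and lowered others.

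Ratios within an array, which remove what all genes of an array share, did not part the groups either. A ratio's level depends on the probes and only its difference between arrays is read. Type III over type I, a ratio often followed in scars, was taken as log2 of Col3a1 over Col1a1 with the brightest probe set of each gene. It was 2.46, 1.08, 2.19 and 1.95 on TGFB arrays and 2.00, 1.17, 1.83 and 2.80 on wildtype arrays. The difference was -0.031 and the groups overlapped fully. Without wildtype 2 it was -0.29, and without wildtype 4 it was 0.25. Col5a1 over Col1a1 differed by 0.052 and Col1a2 over Col1a1 by -0.036, with group SDs from 0.64 to 0.74. Their signs were not settled: the first ran from -0.22 without wildtype 2 to 0.38 without TGFB 2, and the second from -0.33 without wildtype 2 to 0.28 without wildtype 4. Both ratios, like the first, were lowest on TGFB 2 and wildtype 2, where the Col1a1 probe set used was highest. Col12a1 over Col14a1 was -1.38, -1.54, -1.02 and -1.74 on TGFB arrays and -1.29, -2.08, -1.92 and -1.91 on wildtype arrays. Of the wildtype arrays only wildtype 1 lay inside the TGFB range. The means were -1.42 ± 0.31 and -1.80 ± 0.35 (SD, n = 4), a difference of 0.38. These ratios were not tested.

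Outside the set, the genes whose array pattern was most like that of a member were searched among 8786 genes with a mean signal of at least 100, by Pearson r over the 8 arrays. Col3a1 was followed by Igfbp4 (an IGF-binding protein, r = 0.984), Anapc5 (0.982) and the ribosomal protein gene Rpl7a (0.959). Without wildtype 4 these were 0.926, 0.889 and 0.746. Col5a1 was nearest to Arhgef6 (0.984), Sco1 (0.979) and Prrc1 (0.970). Col14a1 was nearest to Obsl1 (0.977), the elongation factor Eef2 (0.942) and Srp72 (0.938), a part of the signal recognition particle. Col12a1 was nearest to the metalloprotease Adam15 (0.938), Eps15 (0.930) and Nln (0.927), and Col1a1 to D10Wsu102e (0.945), Mettl9 (0.937) and D17H6S56E-5 (0.931). None of these 15 genes is a collagen. With 8 arrays and 8786 candidates, high values of r arise readily, and nothing on function is read from them.

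Genes that make, process and bind collagen fibrils were compared at 1 probe set per gene, the one with the highest mean over all arrays. Limma called 0 of 18193 genes at that level (0% in each direction). Of 50 listed partners 45 were measured, and 0 were called in either direction. At an unadjusted p under 0.05, 0 were higher and 2 lower, beside 2.65% higher and 4.42% lower of all genes. Their median log2 difference was -0.080, beside -0.014 over all genes and -0.093 over the 9 collagens.

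The genes with the smallest p in each role are given as values only. Among genes of hydroxylation, folding and secretion, 14 of 19 had a difference below 0. The prolyl isomerase Fkbp14 had -0.39 (SE 0.17), the collagen chaperone Serpinh1 -0.48 (SE 0.28) and the collagen galactosyltransferase Colgalt2 -0.42 (SE 0.25). Among 6 genes of propeptide cleavage, the enhancer of procollagen cleavage Pcolce had signals of 3289, 2844, 3276 and 4241 on TGFB arrays and 5836, 3662, 4673 and 5058 on wildtype arrays. Only TGFB 4 lay inside the wildtype range, and the difference was -0.49 (SE 0.19, limma adjusted p = 0.677). Its relative Pcolce2 had 0.55 (SE 0.54) and the C-proteinase Bmp1 0.12 (SE 0.22). Among 4 crosslinking lysyl oxidases, Loxl3 had -0.22 (SE 0.24), Loxl1 0.20 (SE 0.23) and Loxl4 0.14 (SE 0.25). Loxl4 signals were dim, from 2.36 to 21.8, as were those of Colgalt2, from 16.8 to 55.1. Among 16 genes of the fibril surface and of receptors, decorin (Dcn) had -0.34 (SE 0.16), keratocan -0.56 (SE 0.35) and lumican -0.34 (SE 0.24). Dcn was the single partner without overlap between the groups, with signals of 6078 to 6594 on TGFB arrays and 6764 to 10642 on wildtype arrays, while 2.45% of all genes were lower without overlap. Adjusted p-values of the genes named here lay between 0.677 and 0.937.

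**Figure D4:**
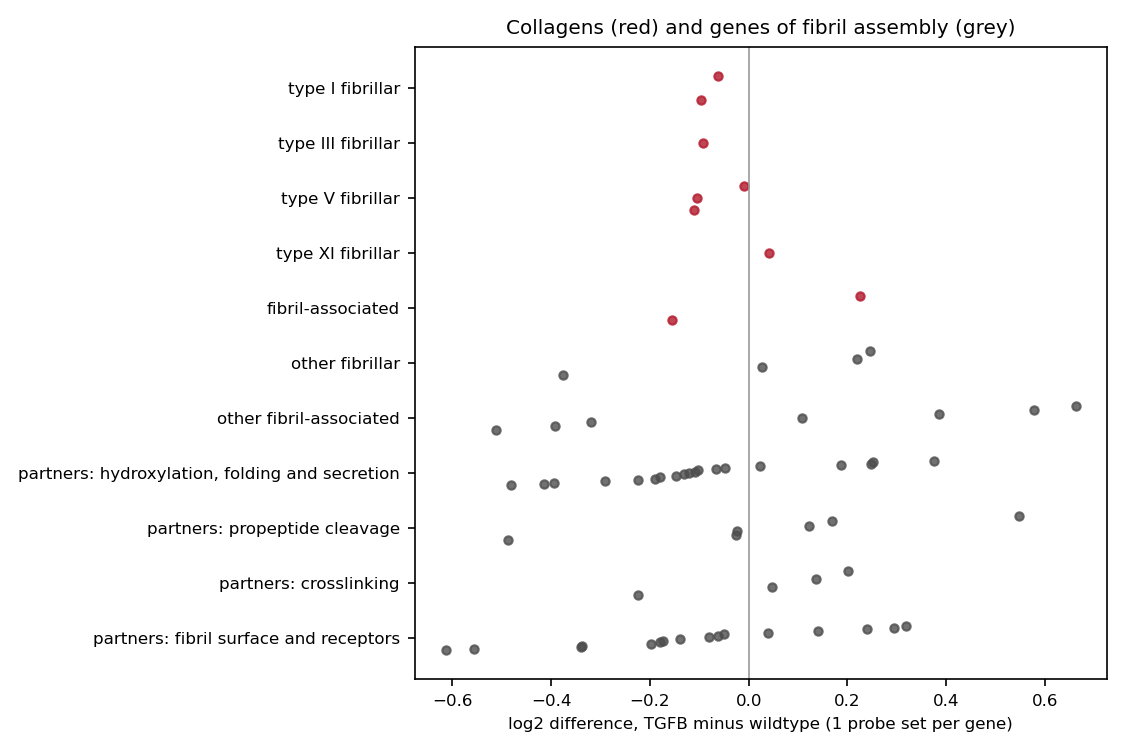
Log2 difference (TGFB minus wildtype, 1 probe set per gene) of each of the 9 collagens (red, by type) and of the other fibrillar and fibril-associated collagens and fibril partners (grey, by role). The red points lie between -0.16 and 0.23, and the grey points spread to both sides of 0.

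Other fibrillar and fibril-associated collagens, 11 of 12 measured, gave 0 calls in either direction and 0 at an unadjusted p under 0.05, with 7 differences above 0 and a median of 0.11. In the fibrillar class Col24a1 had -0.38 (SE 0.23), the cartilage collagen Col2a1 0.25 (SE 0.33) and Col11a2 0.22 (SE 0.37). In the fibril-associated class Col16a1 had -0.39 (SE 0.20), Col9a1 -0.51 (SE 0.32) and Col19a1 0.66 (SE 0.46). Col19a1 had a signal of 122.0 on TGFB 1, against 11.8 to 63.4 on the other arrays. Limma adjusted p-values of these 6 genes lay between 0.750 and 0.932.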

How the data were processed

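The authors deposited linear probe set intensities of 8 arrays (per the file headers, 1 column per sample), and no tool or scaling for them is given in the sources used here. The deposited intensities have a 2% trimmed mean of 150 on every array, so no further normalization was applied. Median signals ran from 26.3 to 34.4 and precision is limited by the number of arrays. No pair of arrays held identical values. The 64 control probe sets were left out. An annotation of the platform gave 1 symbol to 34945 probe sets, of which 34741 matched a RefSeq table (GRCm38.p6) by Entrez ID, several to 932 and none to 9160. Values were taken as log2(signal + 16), which understates changes of dim genes. The comparison used limma 3.58.1 under R 4.3.3 (lmFit, eBayes without a trend) over 45037 probe sets, with Benjamini-Hochberg adjustment and a threshold of 0.05. SE is the moderated standard error. The step was tested on simulated data. Fits at 1 probe set per gene covered 18193 genes. The named genes are all members, up to 3 partners with the smallest p per role and the 3 genes of nearest pattern for 5 members. Members and lists were chosen with earlier results of these data known. Alternatives covered offsets, scaling, filtering, probe set choice, eBayes options, array weights and left-out arrays. Array numbers within a group follow record order and pair nothing.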

Additional observations from a re-analysis of the deposited data

Results flagged for a closer look

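In 54 groups of 4 arrays (23 probe sets and 4 ratios in each condition), 3 held an array whose gap to its neighbour exceeded Dixon's critical value at 95%, as a share of the range. Chance flags about 1 in 20 such groups. Wildtype 4 stood above the other wildtype arrays in Col1a2 probe set 1423110_at, with a gap of 0.918 of the range, and in Col5a2 probe set 1422437_at, with 0.936. TGFB 3 stood below the other TGFB arrays in Col3a1 probe set 1427884_at, with 0.846.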

How the results depend on the processing

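No member passed the threshold under any alternative run, all of which gave 0 calls among the members. Over all probe sets the count of calls was 0 except for 2 without wildtype 4 (0 to 2 over single arrays left out) and 2 without wildtype 1 and wildtype 4, and 2641 probe sets had an unadjusted p under 0.05. No paired analysis was possible because the labels give the groups no shared numbers.

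Signs of small differences were not settled. Over single arrays left out, the lowest and highest log2 differences were -0.35 (without TGFB 2) and 0.16 (wildtype 2) for Col1a1 1455494_at, -0.24 (wildtype 3) and 0.13 (wildtype 1) for Col1a1 1423669_at, -0.20 (wildtype 1) and 0.10 (wildtype 4) for Col1a2 1450857_a_at, and -0.21 (wildtype 3) and 0.091 (wildtype 4) for Col1a2 1423110_at. They were -0.18 (wildtype 1) and 0.077 (wildtype 4) for Col3a1 1427883_a_at, -0.12 (TGFB 1) and 0.18 (wildtype 4) for Col5a1 1416740_at, -0.20 (wildtype 1) and 0.13 (wildtype 4) for Col5a2 1422437_at, and -0.34 (wildtype 1) and 0.12 (wildtype 2) for Col5a3 1419703_at. They were -0.22 (TGFB 4) and 0.41 (wildtype 4) for Col11a1 1449154_at, -0.42 (TGFB 3) and 0.27 (wildtype 4) for Col11a1 1418599_at, -0.12 (TGFB 4) and 0.033 (wildtype 3) for Col12a1 1440101_at, and -0.37 (TGFB 2) and 0.031 (wildtype 4) for Col14a1 1453931_at. Array weights turned 5 signs: Col1a2 1450857_a_at to 0.025, 1423110_at to 0.022, Col5a1 1416740_at to 0.11, Col5a2 1422437_at to 0.039 and Col11a1 1418599_at to 0.32. Quantile normalization turned Col5a1 1416740_at to 0.037. Without wildtype 1 and wildtype 4, Col1a1 1423669_at was 0.19, Col1a2 1450857_a_at 0.046 and 1423110_at 0.11, Col3a1 1427883_a_at 0.030, Col5a1 1416740_at 0.22, Col5a2 1422437_at 0.12 and Col11a1 1418599_at 0.47. Without the 3 arrays rich in cornified transcripts, Col3a1 1427884_at was -0.0088, Col11a1 1418599_at 0.38 and Col12a1 1440101_at 0.021. With a gene's probe sets averaged in place of the brightest, Col1a2 was 0.12, Col3a1 0.0068, Col5a1 0.21, Col5a2 0.022, Col5a3 0.11 and Col11a1 -0.046. The cause of these turns was not tested, and each fit with fewer arrays has fewer samples. The ratios moved by less than 1 pooled within-group SD in every setting, including the other Col1a1 probe set, which was chosen after seeing the data. For the ratios over Col1a1 that SD was 0.64 to 0.73, far wider than their differences. Turns of sign therefore count as no move there, and stability is not read from it.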
